A study of Mus musculus with 38 samples.

Results

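Cells of the Tcf21 lineage in mouse adipose tissue, visceral by the title of the series, were profiled by ATAC-seq, which marks open chromatin, and 1409 of 123130 merged peak regions (1.14%) carried a peak after both 1 and 12 weeks of high-fat diet but in no library of cells taken at 3 weeks of age. Peaks of 9 lists, on chromosomes 1 to 19, X and Y of mm10, were merged wherever they overlapped by at least 1 bp. A region was kept when both wild-type (WT) lists after 1 week of diet (WT 1W HFD) and both WT lists after 12 weeks (WT 12W HFD) held a peak there, and none of 3 WT and 2 Tcf21 knockout (KO) lists at 3 weeks of age (WT 3W and KO 3W) did. The regions were thus chosen by the authors' peak calls, and the calls and ranks of their peaks are a description and not a test. RNA-seq of separate libraries did not enter the choice.

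The HFD groups ate Teklad TD.06414 from 6 weeks of age, and the 3W groups and the adult WT group taken at 6 months (WT 6M) had regular chow, LabDiet 5001. RNA libraries numbered 4 for WT 1W HFD, 5 for WT 12W HFD, 2 for WT 6M, 7 for WT 3W, 2 for KO 1W HFD, 2 for KO 12W HFD and 5 for KO 3W, and 2 further WT libraries from postnatal day 12 entered only the shared estimate of spread. Mice of all groups received tamoxifen in corn oil to switch on MerCreMer, a Cre recombinase whose driver the labels do not name. The labels give doses for adults, pregnant females and newborns under every sample, so the age at dosing of each group is unknown. Each library came from 5000 sorted cells, and whether replicates came from separate animals is not stated, so p-values measure spread between libraries. Groups follow the sample titles, from which the genotype field differed in 22 of 38 samples, including both ATAC libraries titled KO 3W. Age, diet and perhaps dosing differ together between HFD and 3W cells and cannot be told apart, and regular-diet cells of the HFD ages were not analysed here.

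Tcf21 is a helix-loop-helix transcription factor that marks mesenchymal progenitors of visceral fat, the cells from which fat cells and fibroblasts arise. Open chromatin away from gene starts often holds enhancers, which bind transcription factors and act on genes at a distance, whereas open chromatin at gene starts is shared by many cell types. In obesity visceral fat also takes in macrophages, and these can hold RNA and open chromatin of their own in a sorted sample.

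Promoters of known sequence lay whole inside 39 of the 1409 regions. RefSeq (GRCm38.p6) gives 44 windows there, of 38 genes, each reaching from 250 bases before a gene start to 50 bases after it, out of 32817 windows in all. The 250 bases upstream are shown for 6 of them. RNA of these genes is described further on, as is that of Apol9b and Sh3tc1, whose windows are not shown. Each is written 5′ to 3′ on the gene's strand. Capitals mark matches, on either strand, to the letters TGANTCA (bound by AP-1 factors), CAGCTG (the E-box type bound by Tcf21), GGAATG (TEAD factors), TGTGGTT (RUNX factors), TGGAAA (NFAT factors) and GGGCGG (KLF and SP factors).
Casp1, chr9:5298267-5298516, plus strand: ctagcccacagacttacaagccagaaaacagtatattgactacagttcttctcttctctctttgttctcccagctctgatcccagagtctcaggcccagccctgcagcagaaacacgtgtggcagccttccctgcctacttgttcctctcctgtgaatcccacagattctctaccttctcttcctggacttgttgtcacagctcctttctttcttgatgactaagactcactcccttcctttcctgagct
Blnk, chr19:40994222-40994471, minus strand: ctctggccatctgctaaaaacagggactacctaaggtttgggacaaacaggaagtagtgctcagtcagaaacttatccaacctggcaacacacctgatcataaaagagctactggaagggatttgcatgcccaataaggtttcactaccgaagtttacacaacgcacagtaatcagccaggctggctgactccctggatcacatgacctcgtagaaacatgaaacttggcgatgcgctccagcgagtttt
Fermt3, chr19:7019470-7019719, minus strand: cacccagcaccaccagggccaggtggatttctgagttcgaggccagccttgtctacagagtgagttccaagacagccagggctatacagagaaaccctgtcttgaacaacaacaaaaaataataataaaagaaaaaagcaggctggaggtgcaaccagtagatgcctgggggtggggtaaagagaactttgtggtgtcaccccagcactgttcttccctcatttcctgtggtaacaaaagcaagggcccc
Cd36, chr5:17835897-17836146, minus strand: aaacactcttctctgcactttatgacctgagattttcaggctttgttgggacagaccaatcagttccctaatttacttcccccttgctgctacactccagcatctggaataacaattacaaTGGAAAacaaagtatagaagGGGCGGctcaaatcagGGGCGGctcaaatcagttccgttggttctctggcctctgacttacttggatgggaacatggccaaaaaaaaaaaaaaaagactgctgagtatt
Tdo2, chr3:81975729-81975978, minus strand: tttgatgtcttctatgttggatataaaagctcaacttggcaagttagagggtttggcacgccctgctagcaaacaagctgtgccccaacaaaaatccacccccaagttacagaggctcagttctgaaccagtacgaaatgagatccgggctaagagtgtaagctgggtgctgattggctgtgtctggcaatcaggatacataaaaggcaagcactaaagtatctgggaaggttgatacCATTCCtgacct
Gpr18, chr14:121915889-121916138, minus strand: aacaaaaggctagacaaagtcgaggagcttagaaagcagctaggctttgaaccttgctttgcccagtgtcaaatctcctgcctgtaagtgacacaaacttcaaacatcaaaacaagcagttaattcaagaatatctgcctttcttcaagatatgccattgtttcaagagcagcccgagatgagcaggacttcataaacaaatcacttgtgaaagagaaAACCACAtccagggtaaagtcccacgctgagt

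Casp1, Blnk and Fermt3 held none of these 6 motifs in the stretch shown. Cd36 held 2 matches to GGGCGG and 1 to TGGAAA, Tdo2 held 1 to GGAATG and Gpr18 held 1 to TGTGGTT. Of the windows not shown, both of Apol9b held 2 matches to GGAATG and 1 to TGGAAA in the upstream bases. In 1 of them TGANTCA and CAGCTG were matched as well, and the Sh3tc1 window held none of the 6. Over the 44 windows the median GC content was 48.0%, against 60.3% in the 17533 windows inside any merged region and 52.7% in all windows. The median number of CpG pairs was 3.5 in the 44 windows, against 19 in those inside any merged region and 7 in all. The motif GGGCGG occurred in 6 of the 44 windows (13.6%), against 58.5% of windows inside any merged region and 35.6% of all windows. TGANTCA occurred in 6 of 44 (13.6%), against 5.77% and 7.81%, and CAGCTG in 12 of 44 (27.3%), against 16.4% and 16.3%. A match to these letters is a description of the sequence and not a measured binding site.

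Most of the regions lay away from gene starts. Starts here are those of the 25656 genes with RNA values. RefSeq starts of other genes, which some of the 39 regions above hold, were not counted. Only 53 (3.76%) had a counted start within 1 kb of their edges. The share was 13.8% of all merged regions and 36.3% of the 35747 regions with a peak in all 9 lists. Of the 53, 29 lay at a RefSeq start, and 24 at an end of a gene without one, where start and finish of the gene could not be told apart. The median distance from a region's middle to the nearest start was 33063 bp, against 22819 bp over all merged regions and 11481 bp over regions found in all lists. Another 306 (21.7%) were farther than 100 kb from any counted start, against 16.4% of all merged regions. Gene bodies held 775 (55.0%), against 60.9% of all merged regions. The regions with peaks only in both 1W HFD lists (1014) or only in both 12W HFD lists (3008) had 3.55% and 4.49% at starts. Their median distances to a start were 22839 bp for the 1W HFD regions and 33701 bp for the 12W HFD regions, and 15.4% and 23.0% of them were farther than 100 kb away. These differences were not tested. Chromosome X carried 18 (1.28%), against 2.48% of all merged regions. Their median width was 1386 bp (lowest 559, highest 7955), against 1351 bp over all merged regions, and together they covered 2.16 Mb.

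**Figure D1:**
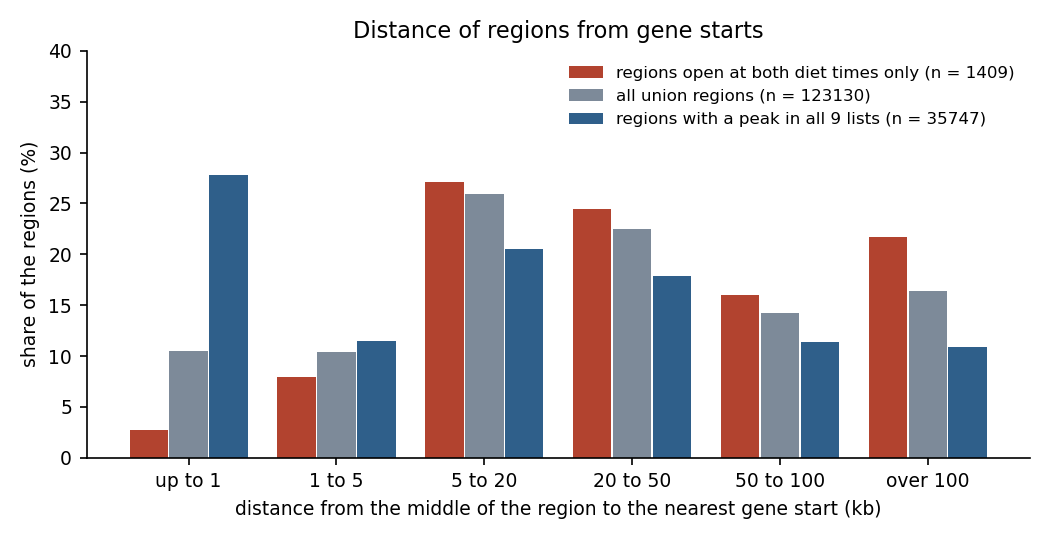
Share of regions (%) by distance in kb from the region's middle to the nearest start of a gene with RNA values. Bars show the 1409 regions open at both diet times only, all 123130 merged regions and the 35747 regions with a peak in all 9 lists. In the class up to 1 kb the 1409 regions hold 2.70%, against 10.5% of all merged regions and 27.8% of those found in all lists; beyond 100 kb they hold 21.7%, against 16.4% and 10.9%.

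Within the lists the regions ranked low. By fold enrichment over background, the authors' value for each peak, their median percentile was 32.9 and 24.0 in the WT 1W HFD lists (replicates 1 and 2) and 37.7 and 36.9 in the WT 12W HFD lists. In WT 1W HFD replicate 2, 92.4% of them fell under the list's own median, and the other lists had 73.4% to 84.7%. Only 37 were above the median of all 4 lists. For each region the weakest of its 4 peaks had a −log10 q with a median of 4.22, and 464 regions reached 5 in every list. The summits of the 4 peaks lay within 262 bp of each other in the median region, and within 200 bp in 503 (35.7%). In 97 regions at least 1 list had more than 1 peak.

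**Figure D2:**
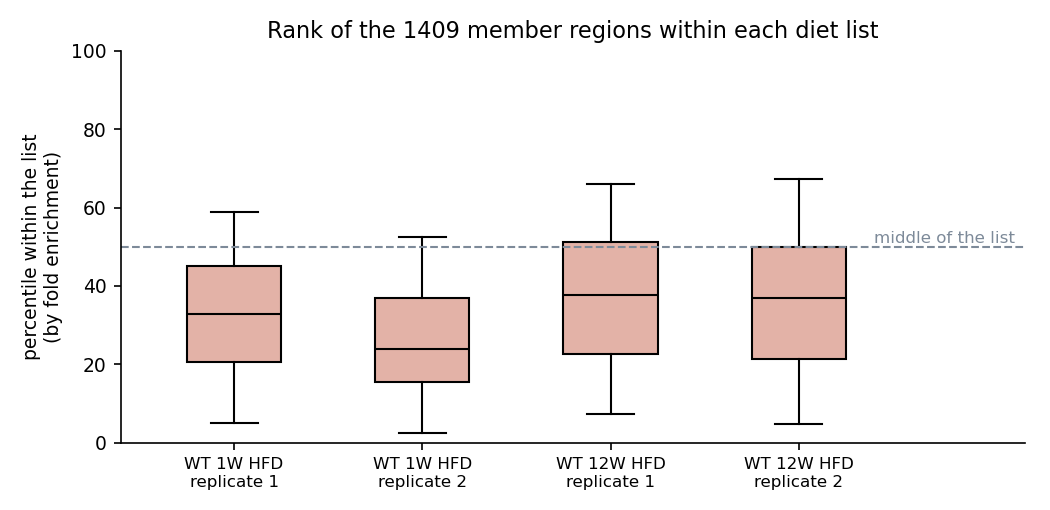
Percentile of the 1409 regions within each of the 4 HFD peak lists, ranked by fold enrichment; boxes span the 25th to 75th percentile of the regions, the line inside is their median and whiskers reach the 5th and 95th. The medians of 32.9, 24.0, 37.7 and 36.9 all lie under the middle of the list, drawn as a dashed line.

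The absence of a peak in a 3W list means that none was called there, and a call can depend on the list's threshold and depth. What accounts for the missing calls was not tested. The HFD lists held 76321 to 93314 peaks, and the 3W lists 55990 to 84876, and read coverage of the 3W libraries at these regions was not analysed here. Of 54083 regions with a peak in all 4 HFD lists, 1409 had none at 3W, and 2486, 3408, 4714, 6319 and 35747 had a peak in 1 to 5 of the 3W lists in that order. Among the 2486 with a single 3W peak, KO 3W replicate 1 held 1670 and KO 3W replicate 2 held 402, whereas WT 3W replicates 1, 2 and 3 held 289, 82 and 43. Without KO 3W replicate 1, 3081 regions would meet the rule. Peak names in the files begin with 1 of 2 letters, and all 4 HFD lists share a letter with KO 3W replicate 1 and WT 3W replicate 1; by these 6 lists alone 2207 regions would meet it. The labels do not explain this letter.

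The weakest member lay inside Mmadhc, a gene of cobalamin metabolism, at chr2:50290722-50292084. Its peaks had a −log10 q of 2.45 and 4.99 in the WT 1W HFD lists and 2.74 and 1.36 in the WT 12W HFD lists. Just outside the rule stood a region near Slc4a4, a bicarbonate transporter gene, whose only 3W peak (chr5:88960852-88961365, KO 3W replicate 1) had a −log10 q of 1.42 and a 2.45-fold enrichment.

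At the other end, 12 regions ranked highest by the weakest of their 4 percentiles. The first, chr10:38135488-38136815, lay 685.6 kb from its nearest annotated start (Rfpl4b), with a −log10 q of 38.1 and 36.5 in the WT 1W HFD lists and 76.7 and 59.3 in the WT 12W HFD lists, and at the 67th percentile or above in each. The next, chr5:37729740-37731832, lay 4.7 kb from Cytl1, a secreted cytokine-like protein, with a −log10 q of 61.8 and 31.5 at 1W HFD and 67.7 and 61.9 at 12W HFD. Of the 12, 6 lay inside genes: Limch1, an actomyosin regulator, Abi3bp, a matrix protein, Camk1d and Tnik, both kinases, Sgk1, a kinase induced by glucocorticoid, and Hdac9, a histone deacetylase. The region in Limch1 (chr5:66871312-66872363) had −log10 q values of 44.0, 30.3, 32.9 and 63.2 over the 4 lists and summits within 54 bp. The region in Sgk1 (chr10:21951915-21953766) had 40.4, 20.02, 19.7 and 20.5. The regions near Tmem45b, Plpp3 and Hdac9 lay 178.3, 277.9 and 237.0 kb from a start and were linked to no gene, as was the first.

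RNA gave a readout that the rule did not use. Each region was linked to the gene with the nearest start within 100 kb, and 1103 regions reached 989 genes this way, 675 of them by a RefSeq start and 428 by a gene end. A nearest gene need not be the gene a region acts on. Of the 989 genes, 778 had at least 1 TPM in at least 2 libraries and were tested. All 15659 such genes were fitted together with limma on log2(TPM + 1), so log2 changes understate those of low genes, and a gene was called at a Benjamini-Hochberg adjusted p under 0.05. TPM is a level per transcript length scaled within a library, and in a sorted bulk sample fewer cells of a type and less RNA per cell cannot be told apart.

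A larger share of the linked genes than of all genes was called higher after diet. In WT 1W HFD against WT 3W, 102 of 778 linked genes were called higher (13.1%), against a background of 4.78% of all genes tested, and 16 lower (2.06%), against 3.25% of all genes. In WT 12W HFD against WT 3W, 114 were called higher (14.7%), against 7.94%, and 29 lower (3.73%), against 6.23%. The median log2 change of the linked genes was 0.25 at 1W HFD and 0.13 at 12W HFD, against 0.02 and -0.04 over all genes tested. Both comparisons share the 7 WT 3W libraries, so they do not stand apart from each other as evidence. Among the 14207 tested genes linked to any merged region, 4.96% were called higher at 1W HFD and 7.59% at 12W HFD. Without WT 1W HFD replicate 3 the share higher at 1W HFD was 7.61%, against 2.52% of all genes in that fit, and without replicate 4 it was 7.62%, against 2.82%. The share lower at 1W HFD was 0.902%, 1.16% and 0.904% without replicates 1, 3 and 4, against 2.13%, 1.74% and 1.66% of all genes.

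Genes near other peak patterns gave other shares. Genes near regions found only in both 1W HFD lists (610 tested) were called higher in 9.67% at 1W HFD and 6.07% at 12W HFD. Genes near regions found only in both 12W HFD lists (1397 tested) were called higher in 9.52% and 20.1%. A gene can be linked to regions of several patterns, and the differences between these shares were not tested.

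**Figure D3:**
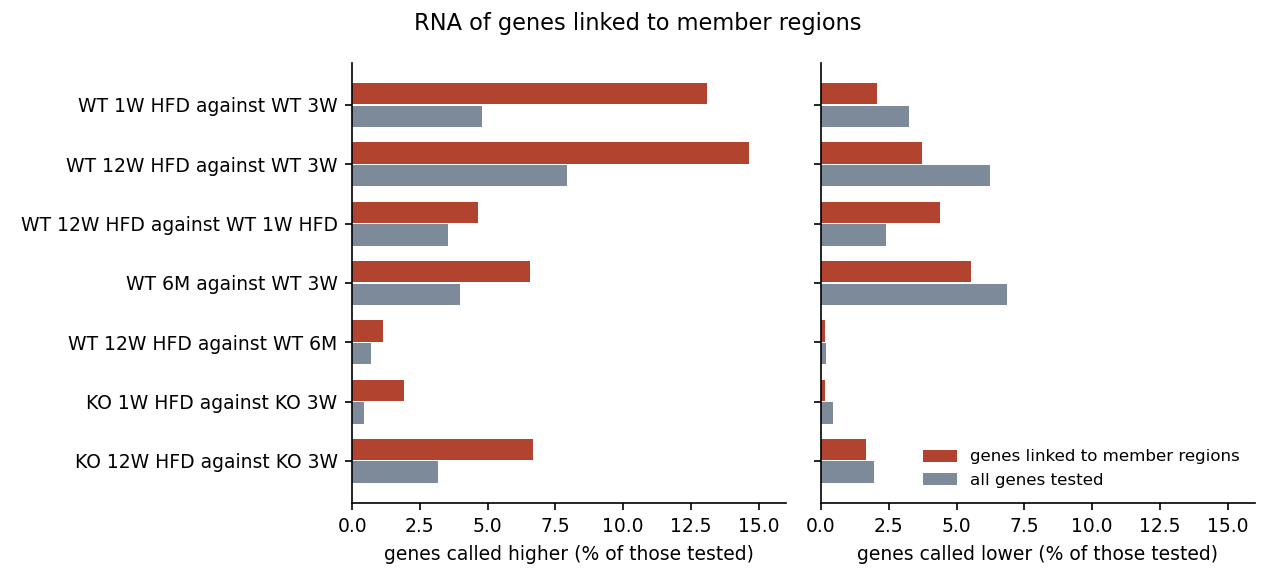
Share of genes (%) called higher (left) and lower (right) in each RNA comparison by limma at a Benjamini-Hochberg adjusted p under 0.05, for the 778 tested genes linked to the 1409 regions (red) and all 15659 genes tested (grey). Linked genes reach 13.1% and 14.7% higher in the 2 WT comparisons of HFD against 3W, where all genes reach 4.78% and 7.94%.

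The share called was also read by distance and number of regions. Over all genes tested, 4.78% were called higher at 1W HFD and 7.94% at 12W HFD, each against WT 3W. At 1W HFD, 59 of 401 linked genes with a region within 20 kb were called higher (14.7%), against 43 of 377 (11.4%) with the nearest region 20 to 100 kb away. At 12W HFD the counts were 76 of 401 (18.95%) and 38 of 377 (10.1%). Among the 76 genes with at least 2 regions, 19 were called higher at 1W HFD (25%), against 83 of 702 genes with 1 region (11.8%), and at 12W HFD 13 (17.1%), against 101 (14.4%). The 34 genes with a region at their start, or end, had 7 called higher at 1W HFD (20.6%) and 11 at 12W HFD (32.4%). These shares are descriptions of small sets.

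Genes with several of the regions were led by Ebf2, an early B cell factor that drives commitment of fat cell precursors, which had 6. They ran over 216.3 kb on chromosome 14, from chr14:67198372-67199854 to chr14:67413238-67414685, and 5 lay inside the gene. Not all were firm: the weakest −log10 q of each ran from 2.40 to 8.37. Their summits spread over 126 to 2620 bp between the 4 lists. Ebf2 had 121, 118, 124 and 130 TPM in WT 1W HFD libraries, against a lowest of 15.1, a median of 52.9 and a highest of 121 TPM in WT 3W libraries. The 1W HFD libraries were alike and at or near the top of a broad 3W range. The log2 change was 1.38 ± 0.39 (SE; limma adjusted p = 0.0281), and it did not pass without any 1 of 6 of the 11 libraries (adjusted p of 0.0544 to 0.0791; without WT 1W HFD replicates 1 to 4, and WT 3W replicates 2 and 3). In WT 12W HFD libraries Ebf2 had 49.1, 70.8, 70.0, 73.0 and 72.7 TPM, inside the 3W range, with a log2 change of 0.50 (adjusted p = 0.44).

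Eya2, a phosphatase and partner of sine oculis homeobox factors, had 4 of the regions, 2 before the gene's lower-coordinate end and 2 inside it. It had 37.3, 29.2, 19.5 and 27.2 TPM in WT 1W HFD libraries, against 2.01, 6.09 and 14.3 TPM (lowest, median, highest) in WT 3W libraries. The groups did not overlap, and the log2 change was 1.85 ± 0.35 (limma adjusted p = 0.00128). At 12W HFD its 5 libraries had 6.65 to 20.6 TPM and the change of 0.92 missed the threshold (adjusted p = 0.0554), while the WT 6M libraries had 65.4 and 30.7 TPM (2.53, limma adjusted p = 3.4e-04).

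Adgrd1, an adhesion G protein-coupled receptor, Plcb4, a phospholipase C, and Sulf1, a sulfatase that trims heparan sulfate outside the cell, had 3 regions each, all overlapping the gene. Adgrd1 had 65.8, 118, 143 and 143 TPM in WT 1W HFD libraries, against 12.1, 29.3 and 58.8 TPM (lowest, median, highest) in WT 3W libraries, without overlap (log2 change 1.90, limma adjusted p = 0.00715). Its widest region, chr5:129198582-129205377, covers an end of the gene. Plcb4 had 28.2 to 52.8 TPM in WT 1W HFD libraries, against 7.36 to 35.1 TPM in WT 3W libraries (1.52, adjusted p = 0.0165; 0.0812 without WT 1W HFD replicate 3 and 0.0557 without replicate 4). Sulf1 had 73.2, 78.3, 113 and 97.5 TPM at WT 1W HFD, against 28.9, 42.0 and 58.7 TPM at WT 3W (lowest, median, highest; 0.97, limma adjusted p = 0.00823). At 12W HFD none of these 3 passed, with log2 changes of 0.91, 0.76 and 0.42 (adjusted p of 0.153, 0.193 and 0.214). Hrh2, a histamine receptor, also had 4 regions, 1 of them at its start, and its RNA stayed under 1 TPM in every library, too low to be tested. The 4 regions linked to Gm48542 lay inside Nova1, an RNA-binding protein gene, and the 3 linked to Gm44835 inside Akap13, a kinase anchor gene.

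**Figure D4:**
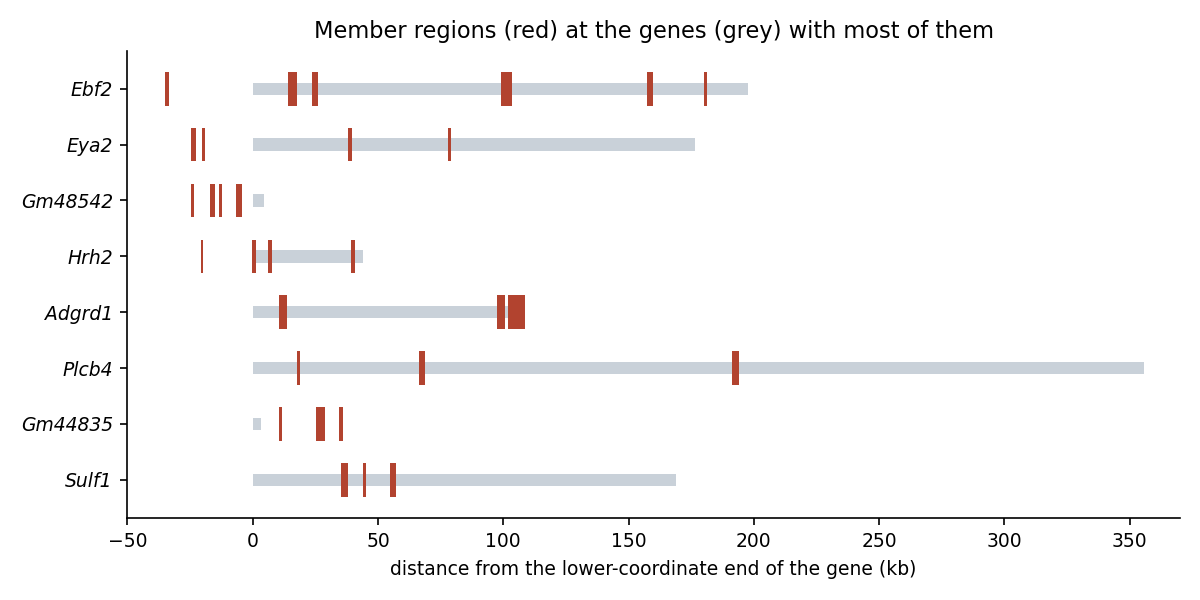
Positions of the regions (red) at the 8 genes that had most of them, in kb from the lower-coordinate end of each gene's annotated span (grey). Ebf2 has 6 regions along its body and up to 34.9 kb before it, while those of Gm48542 and Gm44835 lie outside the named gene.

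At both diet times 52 of the 778 linked genes were called higher (6.68%), against a background of 2.24% of all genes and 2.36% of genes linked to any merged region, and 6 lower (0.771%), against 1.86%. Over fits that left out a library the count higher at both times was lowest at 33 of 774, without WT 1W HFD replicate 4. It was 34 of 775 without WT 1W HFD replicate 3, and all of these were among the 52. Of all genes, 1.47% and 1.41% were higher at both times in these 2 fits. The 15 of them with the largest change, ranked by the smaller of the 2 changes, are described here.

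Cd74 and Tyrobp are on the list of macrophage markers. Cd74, the invariant chain of MHC class II, had a region within 1 kb of an end of the gene (chr18:60804426-60807845) and 339, 421, 411 and 510 TPM in WT 1W HFD libraries and 1861, 7444, 6815, 1969 and 1286 TPM in WT 12W HFD libraries, against 3.68, 36.7 and 112 TPM (lowest, median, highest) in WT 3W libraries. Neither HFD group overlapped 3W, and the log2 changes were 3.94 ± 0.65 and 6.79 ± 0.60 (limma adjusted p = 3.8e-04 and 2e-09). Tyrobp, an adaptor for activating receptors of myeloid cells, had a region 20.1 kb away and 24.4, 28.7, 24.3 and 26.6 TPM at 1W HFD and 539, 244, 469, 677 and 239 TPM at 12W HFD, against 1.17, 3.15 and 10.3 TPM at 3W (2.52 and 6.41). The region near Tyrobp was weak, with a lowest −log10 q of 2.25 and summits spread over 2087 bp. Il34, a ligand of the macrophage growth factor receptor Csf1r, held a region in its body (chr8:110754040-110756245). It had 10.8, 22.7, 60.1 and 47.3 TPM at 1W HFD and 58.2, 45.9, 40.8, 53.1 and 92.8 TPM at 12W HFD, against 0.06, 2.33 and 8.39 TPM at 3W. Its log2 changes were 3.42 ± 0.47 and 4.34 ± 0.44 (limma adjusted p = 5.7e-05 and 1.8e-08). Mcoln2, an endolysosomal channel, and Ptpre, a tyrosine phosphatase, rose as well (2.10 and 3.26 for Mcoln2, 2.08 and 2.96 for Ptpre, at 1W and 12W HFD); Mcoln2 did not pass at 1W HFD without WT 1W HFD replicate 4 (adjusted p = 0.075).

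The macrophage marker list moved beside these genes. Its 26 members summed to 1650 to 2175 TPM in WT 1W HFD libraries, 6637 to 17567 TPM in WT 12W HFD and 5726 to 10814 TPM in WT 6M libraries, against 308 to 823 TPM in WT 3W libraries. Of the 26, 19 were called higher at 1W HFD and 25 at 12W HFD, and 2 (Tyrobp and Cd74) were linked to a region. The list's part in the region and gene results was not tested. The 14 progenitor markers, such as Pdgfra, Dcn and Col1a1, summed to 57350 to 62901 TPM in WT 1W HFD libraries and 34244 to 49707 TPM in WT 12W HFD libraries, against 31045 to 61245 TPM in WT 3W libraries. Of the 14, 2 were called higher at each diet time and 4 were called lower at 12W HFD.

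Pecam1 is on the list of endothelial markers, and Cd300lg and Adgrl4 are known from vessels. Cd300lg, an adhesion receptor of capillary endothelium, had a region in its body (chr11:102044690-102046851) and 9.87, 14.1, 64.8 and 8.67 TPM at WT 1W HFD and 16.7, 8.41, 13.3, 53.9 and 17.2 TPM at WT 12W HFD, against 0, 0.88 and 3.41 TPM at WT 3W (lowest, median, highest). The groups did not overlap, and the changes were 3.15 and 3.22 (limma adjusted p = 9e-04 and 5.8e-05). Pecam1, an adhesion protein of endothelium, had 18.3, 19.7, 61.8 and 11.5 TPM at 1W HFD and 12.2, 3.42, 4.96, 23.0 and 2.36 TPM at 12W HFD, against 0.05, 1.53 and 2.87 TPM at 3W (3.38 and 1.77, limma adjusted p = 0.00124 and 0.0419). The 12W HFD range overlapped 3W, and that call was lost in 7 of 12 fits without a library (adjusted p of 0.0538 to 0.154; without WT 12W HFD replicates 1, 3 and 4, and WT 3W replicates 1, 4, 6 and 7). Adgrl4, an adhesion receptor of vessels, changed by 2.58 and 1.81 (adjusted p = 0.00974 and 0.0352); the 12W HFD call was lost in 6 of 12 fits (0.0566 to 0.117; without WT 12W HFD replicates 1, 3 and 4, and WT 3W replicates 5, 6 and 7), and the 1W HFD call without WT 1W HFD replicate 3 (0.076). Endothelial markers, 14 in all, summed to 254 to 613 TPM at WT 1W HFD and 89.8 to 377 TPM at WT 12W HFD, against 85.9 to 170 TPM at WT 3W, with 8 called higher at 1W HFD and 3 at 12W HFD, and their part in these results was not tested.

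The other genes of the 15 were on none of the marker lists. Vgll3, a cofactor of TEAD transcription factors, had a region 75.4 kb away. It had 89.2, 93.1, 146 and 132 TPM at WT 1W HFD and 58.4, 158, 98.7, 85.7 and 110 TPM at WT 12W HFD, against 9.82, 23.3 and 48.2 TPM at WT 3W (2.22 and 2.01, limma adjusted p = 8e-04 and 2.4e-04). Pdlim1, a cytoskeletal PDZ-LIM protein, held a region 6.8 kb from its start (chr19:40263697-40265925) and had 111, 142, 224 and 169 TPM and 107, 112, 94.1, 134 and 123 TPM at WT 1W and 12W HFD, against 15.9, 29.9 and 63.0 TPM at WT 3W. It changed by 2.36 ± 0.30 and 1.90 ± 0.28 (limma adjusted p = 2.9e-05 and 1.1e-05). Neither gene overlapped between HFD and 3W. Fgf1, a fibroblast growth factor, had 25.4, 52.9, 48.0 and 76.8 TPM and 29.04, 29.04, 29.6, 33.1 and 62.0 TPM, against 0.4, 9.66 and 21.8 TPM at WT 3W (2.48 and 2.05, limma adjusted p = 0.00216 and 0.00214). Its 2 regions were weak, with a lowest −log10 q of 1.67 and 2.88. Iqgap2, a scaffold protein of the cytoskeleton, had 2 regions (2.42 and 2.68), Enpp6, a choline phosphodiesterase, also 2 (2.51 and 2.15), and Sh2d4a, an SH2 adaptor, 1 (2.24 and 1.85). Ly6c1, a surface protein, changed by 2.44 and 2.40, but near-identical Ly6 genes may share its reads and its level is uncertain.

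The 6 genes lower at both times were named in full. Musk, a receptor kinase of the neuromuscular junction, had 3.23, 1.77, 0.31 and 0.64 TPM at WT 1W HFD and 0.31, 1.16, 0.9, 2.01 and 2.27 TPM at WT 12W HFD, against 4.4, 10.7 and 23.2 TPM at WT 3W, without overlap (-2.22 and -2.24, limma adjusted p = 0.00199 and 2e-04). C1qtnf3, a secreted adipokine, had 122, 144, 72.7 and 35.1 TPM and 20.6, 47.7, 43.6, 29.5 and 45.9 TPM, against 194, 234 and 344 TPM at WT 3W, again without overlap (-1.58 and -2.76, adjusted p = 0.00407 and 1.9e-07). Both kept their calls in each fit without a library. Hmcn1, a matrix protein (-1.31 and -1.80), Nt5c2, a nucleotidase (-0.91 and -0.93), Smarca2, a chromatin remodelling ATPase (-0.63 and -0.56), and Tomm20, a mitochondrial import receptor (-0.72 and -0.44), were called by smaller margins. Hmcn1 at 1W HFD was lost in 10 of 11 fits without a library (adjusted p up to 0.153), all but the fit without WT 3W replicate 1. Nt5c2 at 1W HFD was lost in 7 of 11 (up to 0.188), without WT 1W HFD replicates 1 to 3 or WT 3W replicates 2, 3, 4 or 6. Smarca2 at 1W HFD was lost in 4 of 11 (up to 0.0848), without WT 1W HFD replicates 1, 3 or 4 or WT 3W replicate 2. Tomm20 at 12W HFD was lost in 7 of 12 (up to 0.159), without WT 12W HFD replicates 2, 3 or 5 or WT 3W replicates 1, 2, 3 or 5. At 12W HFD, Nt5c2 was also lost without WT 12W HFD replicate 3 (0.0661) and Smarca2 without WT 12W HFD replicate 2 (0.057).

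**Figure D5:**
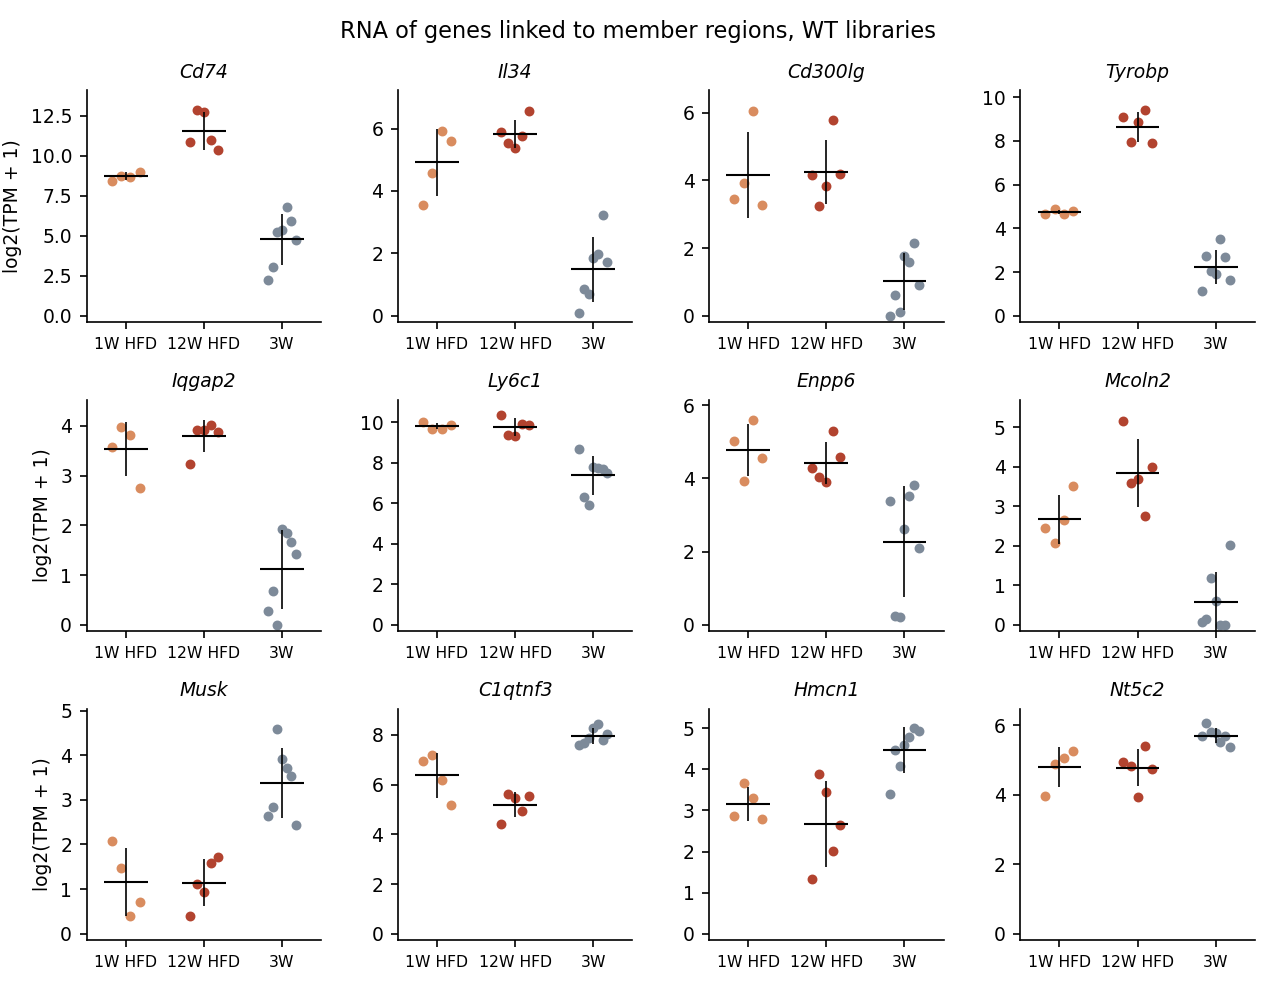
Level of 12 linked genes as log2(TPM + 1) in each WT library at 1W HFD (n = 4), 12W HFD (n = 5) and 3W (n = 7), with the group mean (horizontal line) and SD (vertical line). The upper 2 rows hold the 8 genes with the largest smaller rise and the bottom row 4 genes called lower. Genes without overlap of either HFD group with 3W include Cd74, Il34, Cd300lg, Tyrobp, Iqgap2, Mcoln2, Musk and C1qtnf3.

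Some of the 34 tested genes with a region within 1 kb of a start or end were picked after their values were seen. Of the 34, 7 were called higher at 1W HFD (20.6%), against 4.78% of all genes. At 12W HFD 11 were called higher (32.4%), against 7.94%. Cass4, Fhit, Lenep, Sh3bp2, Steap3, Syn2 and Tlr6, whose promoters also lay inside a region, were called at neither time. Casp1, the protease of the inflammasome, had 23.9, 15.4, 13.2 and 28.8 TPM at WT 1W HFD and 93.0, 62.6, 51.7, 68.1 and 53.2 TPM at WT 12W HFD, against 2.84, 6.78 and 15.5 TPM at WT 3W. It changed by 1.29 (limma adjusted p = 0.0125; 0.0714 without WT 1W HFD replicate 4) and 2.97 (2.3e-08). Blnk, an adaptor of B cell and myeloid receptors, had 2.72, 0.88, 6.33 and 3.9 TPM at 1W HFD and 29.7, 21.7, 29.8, 46.6 and 14.96 TPM at 12W HFD, against 0, 0.06 and 4.03 TPM at 3W, and passed only at 12W HFD (4.16, limma adjusted p = 4.4e-08). Fermt3, an integrin activator of blood cells, did likewise, with 25.4, 16.4, 25.5, 35.7 and 11.6 TPM at 12W HFD, against 0, 0.44 and 2.77 TPM at 3W (3.79, adjusted p = 5.7e-08). Lat2, an adaptor of myeloid and B cells (5.21), Inpp5d, a lipid phosphatase of blood cells (2.49), and Epsti1, an interferon-induced gene (1.62), were also called higher at 12W HFD. The promoters of Casp1, Blnk and Fermt3 are the ones shown above without a match to the 6 motifs.

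Cd36, a receptor that takes up fatty acids and oxidised lipoprotein, had its region (chr5:17835635-17836503) over 1 of its RefSeq starts, the window printed above. It had 211, 133, 316 and 97.97 TPM at WT 1W HFD and 903, 211, 519, 883 and 461 TPM at WT 12W HFD, against 18.99, 91.7 and 128 TPM at WT 3W. Only 12W HFD passed (1.40 with adjusted p = 0.108 at 1W HFD; 3.01 with limma adjusted p = 5.8e-05 at 12W HFD). Tdo2, an enzyme that opens the ring of tryptophan, had 27.7, 4.34, 2.41 and 2.41 TPM at WT 1W HFD and 0.03 to 0.39 TPM at WT 12W HFD, against 0, 0.21 and 1.02 TPM at WT 3W. It passed at 1W HFD (2.34, limma adjusted p = 5.3e-04), where 1 library stood far above the other 3, and not at 12W HFD (-0.17, adjusted p = 0.829). Gpr18, a receptor of immune cells, had 2.98, 3.55, 2.74, 1.71 and 2.83 TPM at WT 12W HFD and was listed at 0 in all 4 WT 1W HFD libraries and in 6 of 7 WT 3W libraries, with 1.33 TPM in the last (1.72 at 12W HFD, limma adjusted p = 9.4e-05). Sh3tc1, an SH3 domain protein (1.25, adjusted p = 0.0103), and Apol9b, of the apolipoprotein L family (1.79, adjusted p = 0.0166; 0.0962 without WT 12W HFD replicate 1 and 0.0606 without replicate 4), passed at 12W HFD too; Apol9b has a near-identical copy and is uncertain. The calls of Inpp5d and Epsti1 at 1W HFD (1.22 and 0.96) were lost in 9 and 7 of 11 fits without a library (adjusted p up to 0.222 and 0.207). For Inpp5d these were all but WT 1W HFD replicate 2 and WT 3W replicate 5, and for Epsti1 they were WT 1W HFD replicates 1, 2 and 4 and WT 3W replicates 1, 3, 5 and 6.

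The genes of the highest-ranked regions moved less evenly. Limch1 had 8.2, 23.5, 47.3 and 42.7 TPM at WT 1W HFD, against 4.9, 8.54 and 11.5 TPM at WT 3W (1.59, limma adjusted p = 0.0187; 0.11 and 0.0974 without WT 1W HFD replicates 3 and 4), and 7.59 to 12.6 TPM at WT 12W HFD (0.22). Sgk1 was called higher at 12W HFD (1.03, adjusted p = 0.0223; 0.0545, 0.0895 and 0.0859 without WT 12W HFD replicates 1, 4 and 5). Abi3bp (-0.93, adjusted p = 0.00954; 0.0512 without WT 12W HFD replicate 1) and Tnik (-1.73, adjusted p = 0.0138) were called lower at 12W HFD. Cytl1 had 0 to 3.38 TPM at WT 1W HFD and 0 to 1.69 TPM at WT 12W HFD, against 0 to 0.82 TPM at WT 3W. A high rank of the region thus stood beside RNA that was higher, lower or near 0.

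Lists of pathway genes, chosen with earlier results of these data known, were counted for links. Of all 15659 genes tested 4.97% were linked to a region. Adipogenic transcription factors had 5 of 21 linked (Pparg, Ebf1, Ebf2, Klf4 and Zfp423), and of these only Ebf2 was called, at 1W HFD. Ebf2 was also the only 1 of the 21 called higher at either time, while 3 of the 21 were called lower at 1W HFD and 5 at 12W HFD, none of them linked. Pparg, a central factor of fat cell formation named here after its values were seen, had log2 changes of 0.46 and 0.45 (adjusted p of 0.595 and 0.548). Lysosome and lipid-associated macrophage genes had 4 of 23 linked (Ctsb, Lamp1, Cd36 and Abcg1), all called higher at 12W HFD and only Ctsb at 1W HFD; over the list 16 of 23 were higher at 12W HFD and 5 at 1W HFD. Abcg1, a cholesterol exporter, had 49.5, 25.5, 54.6, 33.5 and 18.04 TPM at WT 12W HFD and 0.01 to 4.27 TPM at WT 1W HFD, against 0.14, 1.07 and 7.2 TPM at WT 3W (3.94 at 12W HFD, limma adjusted p = 3.45e-07). Lamp1, a lysosome membrane protein, passed by little (0.77, adjusted p = 0.0162; 0.061 without WT 12W HFD replicate 1 and 0.0603 without replicate 4), as did Ctsb, a lysosomal protease, at 1W HFD (0.68, adjusted p = 0.0377, lost in 7 of 11 fits, up to 0.0983, without WT 1W HFD replicates 1 to 4 or WT 3W replicates 2, 3 or 7). The TGF-beta and BMP pathway had 4 of 34 linked, of which Tgfb2 was called lower at 12W HFD (-0.78, adjusted p = 0.0141). Over that list 8 of 34 were called lower at 12W HFD and 1 higher. Progenitor markers had 2 of 14 linked, Dpp4, a surface peptidase of interstitial progenitors, and Mfap5, a microfibril protein. Dpp4 had 55.9, 71.8, 87.9 and 95.7 TPM at WT 1W HFD, against 7.32, 9.2 and 54.6 TPM at WT 3W (2.49, limma adjusted p = 4.3e-04), and was also called at 12W HFD (1.37, adjusted p = 0.0145; 0.0513 without WT 12W HFD replicate 3). Collagens had 1 of 24 linked (Col5a2), Wnt genes 2 of 35 and imprinted genes 1 of 15, the growth inhibitor Grb10, lower at 12W HFD (-1.39, adjusted p = 1.1e-04). Of the 15 imprinted genes, linked or not, 10 were called lower at 12W HFD and 0 higher. Chemokines (37), complement (21) and cell cycle genes (32) had none, although 19 chemokines and 11 complement genes were called higher at 12W HFD.

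KO cells, whose ATAC-seq at the diet times was not analysed here, gave RNA of the same genes. In KO 1W HFD against KO 3W, 15 linked genes were called higher (1.93%), against 0.428% of all genes, and 1 lower (0.129%), against 0.434%. In KO 12W HFD against KO 3W, 52 were higher (6.68%), against 3.19%, and 13 lower (1.67%), against 1.96%. With 2 KO libraries at each diet time these shares moved with single libraries. The share higher at KO 1W HFD was 0.387% and 0.388% without KO 1W HFD replicates 1 and 2, against 0.244% and 0.224% of all genes in those fits. It was 3.47%, 0.904% and 0.9% without KO 3W replicates 1, 2 and 4, against 0.826%, 0.18% and 0.198% of all genes. At KO 12W HFD it was 4.25% and 2.06% without KO 12W HFD replicates 1 and 2, against 2.4% and 1.31%, and the share lower was 0.386% and 0.258%, against 1.03% and 0.602%. Of the 52 genes higher at both times in WT cells, 49 had a positive log2 change in both KO comparisons, 11 were called higher in KO 1W HFD and 22 in KO 12W HFD. Over all 350 genes higher at both times in WT cells, 335 had a positive change in both KO comparisons, 44 were called higher in KO 1W HFD and 138 in KO 12W HFD. Vgll3 had 172 and 153 TPM in KO 1W HFD libraries, against 12.8, 19.95, 31.1, 33.6 and 52.0 TPM in KO 3W libraries (2.55, limma adjusted p = 0.0158), and Pdlim1 193 and 171 TPM, against 21.6 to 80.7 TPM (2.11, adjusted p = 0.00771). Cd74 had 1187 and 674 TPM in KO 12W HFD libraries, against 32.1 to 374 TPM in KO 3W libraries (2.89, adjusted p = 0.0459). Macrophage markers summed to 2482 to 2666 TPM at KO 1W HFD and 5547 to 9551 TPM at KO 12W HFD, against 633 to 1414 TPM at KO 3W, and their part was not tested.

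Whether the diet change differed between KO and WT was tested for each gene, as KO change minus WT change. By limma 0 of 778 linked genes passed at either time, and unadjusted p was under 0.05 for 17 (2.19%) at 1W HFD and 28 (3.599%) at 12W HFD, against 2.64% and 2.68% of all genes tested. Of all genes 0.00639% passed in the higher direction at 1W HFD and 0% in every other case. Titles of the 3W RNA libraries name 5 pairs that each join a KO 3W library with WT 3W libraries, and diet libraries carry no pair. With these pairs as a random block in limma, a fit chosen after seeing the data, the correlation within a pair was 0.215 and again 0 of 778 linked genes passed at either time. Unadjusted p was then under 0.05 for 21 (2.7%) at 1W HFD and 32 (4.11%) at 12W HFD, against 3.13% and 3.07% of all genes. There were 2 KO libraries at each diet time, and a gene that did not pass is not shown to change alike in KO and WT.

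Adult cells on regular diet gave a partial view of age. In WT 6M against WT 3W, 51 linked genes were called higher (6.56%), against 4% of all genes, and 43 lower (5.53%), against 6.85%. Without WT 6M replicate 1 the linked genes had 2.44% higher and 2.31% lower, against 1.61% and 3.38% of all genes. Without WT 6M replicate 2 the counts were 26 higher (3.35%) and 13 lower (1.68%), against 3.36% and 2.32% of all genes. The scale matters here: the median gene changed by -0.24 as deposited and by -0.03 after median-ratio scaling. The median linked gene moved with it, from -0.10 as deposited to 0.13 after scaling. Of the 52 genes higher at both diet times, 25 were also called higher at WT 6M and 50 had a positive change there, against 176 and 336 of the 350 such genes among all tested. The 6 genes lower at both diet times were all called lower at WT 6M, against 189 of 291 among all genes. These comparisons share the WT 3W libraries. Cd74 had 4028 and 1840 TPM, Il34 29.4 and 55.8 TPM and Vgll3 87.5 and 109 TPM in WT 6M libraries, within or near their HFD ranges. Cd300lg (3.37 and 4.02 TPM), Pecam1 (2.79 and 3.04 TPM) and Cd36 (37.0 and 90.6 TPM) at WT 6M were near their WT 3W ranges. In WT 12W HFD against WT 6M, 9 linked genes were called higher (1.16%), against 0.702%, and 1 lower (0.129%), against 0.179%. ATAC-seq at 6M was not analysed here, so whether the regions open with age on regular diet is not shown.

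Between the 2 diet times, WT 12W HFD against WT 1W HFD, 36 linked genes were called higher (4.63%), against 3.54% of all genes, and 34 lower (4.37%), against 2.39%. These calls depend on the scale. With median-ratio scaling the median change went from -0.05 to 0.03 over all genes and from -0.09 to 0.005 over linked genes. Tyrobp (3.89, limma adjusted p = 2.5e-06) and Cd74 (2.84, adjusted p = 0.00983) were higher at 12W HFD, as were Lat2 (4.66), Abcg1 (3.68), Blnk (2.80), Fermt3 (2.78) and Casp1 (1.68). Tdo2 (-2.51, adjusted p = 2.1e-04) and Abi3bp (-0.99, adjusted p = 0.0326) were lower. Il34, Cd300lg, Iqgap2, Ly6c1, Vgll3 and Pdlim1 did not pass between the times, with changes of 0.91, 0.07, 0.26, -0.04, -0.21 and -0.46 (adjusted p of 0.349 to 0.988), which does not show that they were equal.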

How the data were processed

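ATAC-seq peak lists of 9 libraries and RNA-seq tables of 29 libraries were used. Per the submitters' processing notes the tools were Trim Galore 0.6, FastQC, Bowtie2 2.3, MACS2, STAR 2.5.3a and RSEM, on mm10. The deposited peak lists give a score, the fold enrichment and the −log10 of p and of q for each peak, called by the authors for each library. The deposited expression values are TPM, whose columns sum to 918008 to 969385, and read depth is unknown. Groups came from sample titles. Regions were merged and linked with Python 3.11.15 and pandas 2.3.3. Gene starts came from RefSeq for 16709 of 25656 genes, and both ends of the gene stood in for the other 8947. log2(TPM + 1) of the 15659 genes that reached 1 TPM in 2 or more of 29 libraries was fitted over 8 groups with limma 3.58.1 (trend, R 4.3.3, 21 residual degrees of freedom), with Benjamini-Hochberg adjustment, after tests on simulated data. Members and lists were chosen with earlier results of these data known. Genes were named by a rule: the 12 regions highest by their lowest percentile and the weakest region, up to 15 genes called higher and 10 called lower at both diet times by the smaller change, the 8 genes with most regions, and up to 4 linked genes per list. Some genes with a region within 1 kb of a start or end were added after their values were seen. Region sequence around the summits was not used here, since no genome was at hand, so promoter windows from RefSeq are shown instead. Alternatives covered peak thresholds, link rules, scaling, filters, weights and left-out libraries.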

Additional observations from a re-analysis of the deposited data

Results flagged for a closer look

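Among the 21 genes called in the same direction at both diet times and described singly, 84 groups of 4 to 7 libraries were examined for a library far from the rest. In all, 9 were found, where chance would give about 4.2 in independent groups. The same libraries enter the groups of several genes, so the groups are not independent, and an excess over 4.2 was not tested. Cd300lg had 64.8 TPM in WT 1W HFD replicate 3, against a next highest of 14.1 TPM in that group, and 53.9 TPM in WT 12W HFD replicate 4, against 17.2 TPM. Pecam1 had 61.8 TPM in WT 1W HFD replicate 3, against 19.7 TPM, so the same library stood apart for both of these endothelial genes. Fgf1 had 62.0 TPM in WT 12W HFD replicate 5, against 33.1 TPM, and 51.8 TPM in KO 3W replicate 1, against 18.7 TPM. Iqgap2 had 7.59 TPM in KO 3W replicate 1, against 1.33 TPM, and its lowest WT 12W HFD library was replicate 1 with 8.45 TPM, where the next lowest had 13.7 TPM. Il34 had 8.39 TPM in WT 3W replicate 6, against 2.96 TPM, and Mcoln2 had 3.03 TPM in WT 3W replicate 7, against 1.28 TPM. The values of Il34 and Mcoln2 at 3W stayed under every WT HFD library of the same gene.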

How the results depend on the processing

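The number of regions, 1409, was 464 where the HFD peaks had to reach a −log10 q of 5, 845 with an equal number of peaks per list, 2207 with lists of 1 name letter, and 1451 to 3081 over fits without a library (2566 without WT 1W HFD replicate 2). The share of all genes called moved with the fit too, so the moves below are not to be read as particular to the linked genes. A changed link rule leaves the share over all genes as it was. Without the filter more linked genes were also tested. The shares of linked genes called moved as follows, as percent higher and then lower where both are given. Without a filter on low values they were 8.696 and 1.304 at WT 1W HFD, 2.609 lower for 12W against 1W HFD, 0.435 and 0 for 12W HFD against 6M, and 1.196 and 0 at KO 1W HFD. With array weights they were 5.784 lower at WT 12W HFD, 10.283 lower for 12W against 1W HFD, 4.756 and 0.257 at KO 1W HFD, and 10.54 and 2.571 at KO 12W HFD. With median-ratio scaling they were 2.857 lower for 12W against 1W HFD, 10.26 and 2.078 at 6M, and 0.519 higher for 12W HFD against 6M. With only the groups compared they were 7.143 lower for 12W against 1W HFD, 2.97 lower at 6M, 0.44 and 0 for 12W HFD against 6M, and 1.004 and 0 at KO 1W HFD. With a pseudocount of 0.1 they were 0.643 and 0 for 12W HFD against 6M. Replicate numbers did not pair the libraries (correlations of -0.137 to 0.117); with the replicate block they were 0.386 and 0 for 12W HFD against 6M and 1.285 and 0 at KO 1W HFD, and adjusted p was 0.0545 for Tnik and 0.0721 for Dpp4 at 12W HFD, 0.123 for Plcb4, 0.195 for Hmcn1, 0.158 for Inpp5d and 0.0938 for Epsti1 at 1W HFD, 0.052 and 0.0967 for Adgrl4 at 1W and 12W HFD and 0.115 for Pecam1 at 12W HFD. The pairs of the 3W titles as a random block, chosen after seeing the data, gave 0 lower for 12W HFD against 6M. Links within 20 kb gave 2.244 lower at 6M and 0 lower for 12W HFD against 6M and at KO 1W HFD. Overlapped gene bodies gave 1.14 lower at WT 1W HFD and 0 lower for 12W HFD against 6M and at KO 1W HFD. Promoter regions only, 34 genes, gave 20.588 and 0 at WT 1W HFD, 32.353 and 0 at WT 12W HFD, 20.588 higher for 12W against 1W HFD, 23.529 and 0 at 6M, 2.941 and 0 for 12W HFD against 6M and at KO 1W HFD, and 23.529 and 0 at KO 12W HFD. Regions with a −log10 q of 5 gave 1.873 lower at WT 12W HFD, 0.749 and 0 for 12W HFD against 6M, 0 lower at KO 1W HFD and 0.375 lower at KO 12W HFD. Regions by lists of 1 name letter gave 0.271 lower at KO 1W HFD. The cause of these moves was not tested. Leaving out a library gave 7.613 to 14.929 and 0.902 to 2.831 at WT 1W HFD, 11.697 to 15.097 and 2.964 to 4.505 at WT 12W HFD, 3.737 to 4.891 and 2.057 to 3.732 for 12W against 1W HFD, 2.442 to 7.079 and 1.675 to 6.692 at 6M, 0.386 to 1.675 and 0 to 0.257 for 12W HFD against 6M, 0.387 to 3.47 and 0 to 0.257 at KO 1W HFD, and 2.062 to 7.198 and 0.258 to 2.185 at KO 12W HFD. The KO minus WT difference at 1W HFD had 0 to 0.129 lower. Where this left 1 library in a group, its spread was taken to be that of the other groups. The 52 genes higher at both times became 36 without a filter, 42 with the replicate block (35 shared) and 66 with array weights. Of all genes, 1.28%, 1.75% and 3.12% were higher at both times in these fits, against 2.24% in the main fit. Of the named calls, 32 of 600 refits under another setting lost the call and the others kept it, among them Ebf2 at 1W HFD (adjusted p of 0.0607 and 0.0785) and Casp1 at 1W HFD (0.0543); none turned its sign. Links by RefSeq starts alone, also chosen after seeing the data, kept each share within 1.5 times.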

Other observations

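Of the 1409 regions, 29.8% were within 5 kb of a region with a peak in all 9 lists, against 35.7% of the regions found only in both 1W HFD lists and 21.8% of those found only in both 12W HFD lists; these differences were not tested. Lymphocyte markers summed to 3.47 to 24.3 TPM at WT 1W HFD and 40.8 to 312 TPM at WT 12W HFD, against 2.08 to 13.5 TPM at WT 3W, and Cd3d and Klrb1c were at 0 in all WT 1W HFD and all WT 3W libraries. Cd2, a T cell adhesion receptor and the only linked gene of that list, had a log2 change of 2.19 at 12W HFD (limma adjusted p = 0.00208) and of 1.02 at 1W HFD (adjusted p = 0.263). The region linked to Cd2 was weak, with a lowest −log10 q of 1.41. Fat cell markers summed to 128 to 734 TPM at WT 1W HFD and 65.1 to 195 TPM at WT 12W HFD, against 247 to 7046 TPM at WT 3W, and none of the 12 tested was linked to a region. Pericyte and smooth muscle markers, 11 in all, summed to 78.6 to 249 TPM at WT 1W HFD and 110 to 211 TPM at WT 12W HFD, against 121 to 3071 TPM at WT 3W. Of these, 3 were called lower at 1W HFD and 4 at 12W HFD, and none was linked to a region. Genes near the 170 regions with a peak in all 5 lists at 3W and in no HFD list (67 tested) had 0% called higher and 13.4% lower at 1W HFD, and 2.99% higher and 17.9% lower at 12W HFD.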
